A study of Rattus norvegicus with 12 samples.

Results

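The enzymes of the urea cycle and the main enzymes that use or release arginine were followed in rat liver cells that were deprived of arginine for 18 hours. The 8 genes were Cps1, Ass1, Asl, Arg1, Arg2, Oat, Gatm and Nos2, and their members were all probe sets whose annotation gives exactly 1 of these symbols and no other. The array carries a single-symbol probe set for 10411 genes, these 8 among them. The rule gave 10 of the 15866 non-control probe sets of the RAE230A array, with 2 probe sets each for Cps1 and Asl and 1 for each of the other genes. A further probe set, 1387667_at, is annotated with Nos2 and a Nos2 pseudogene together and was left out.

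The normal cells were WB-F344, a diploid rat liver epithelial line, and the tumor cells were GP7TB, a line derived from WB-F344 cells after 11 exposures to 5 µg/ml of the carcinogen MNNG, so that each cell type is a single line. Arginine-sufficient medium held 0.168 g/l arginine and arginine-deficient medium had none added, but all 4 groups received 5% fetal bovine serum, which was not dialyzed. Each of the 4 groups had 3 independent cultures with 1 array per culture, and within each cell type the cultures were run as 3 experiments, each with 1 arginine-sufficient and 1 arginine-deficient culture. Values are linear signals computed with Microarray Suite 5.0, and differences are log2 differences of these signals. Signals of different probe sets are not on a common scale, so levels are compared only within a probe set. In RNA from whole cultures, fewer expressing cells and less RNA per cell cannot be told apart.

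In the urea cycle, carbamoyl phosphate made by Cps1 enters as citrulline, which Ass1 joins to aspartate, Asl splits the product into arginine and fumarate, and Arg1 cleaves arginine into urea and ornithine. Many cells outside the liver keep only Ass1 and Asl and use them to make arginine from citrulline. Arginine and ornithine also supply other routes: Arg2 is the mitochondrial arginase, Oat carries ornithine toward glutamate and proline, Gatm uses arginine for creatine and Nos2 uses it for nitric oxide. Hepatocytes carry the complete cycle.

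Arg1 fell 2.97-fold in tumor cells without arginine, and of the 6 tested member probe sets it alone passed the test for arginine within a cell type. In tumor cells 1.91% of all tested probe sets passed. Arg1 passed under 8 of 13 other settings and in 7 of 12 fits with 1 array left out. Its signals in arginine-deficient tumor cells were around the threshold of expression. Oat was 1.70-fold lower and Asl 1.79-fold higher in arginine-deficient tumor cells, with no overlap between the groups. Of all tested probe sets, 13.6% lay wholly lower and 9.69% wholly higher there. Neither Oat nor Asl passed the test used throughout. Both did with the experiment as a block, as did 11.0% of all tested probe sets, and Oat also did under some other settings. In normal cells 0 members passed, with or without the block, where 2.41% of all tested probe sets passed with it. By its own p-values, the study lists Arg1, Oat and Asl as decreased in normal cells, and Arg1 and Oat as decreased in tumor cells. In normal cells Arg1 and Oat were also lower here, without passing, but the log2 difference of Asl was 0.17. Without arginine, Arg1 was 3.18-fold and Oat 1.98-fold lower in tumor than in normal cells, and both passed. In that comparison 40.7% of all tested probe sets passed, 21.2% of them all in the downward direction. Cps1, Ass1 and Gatm stayed under the expression threshold on all 12 arrays.

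The threshold of expression was the signal above which the top 54% of an array's probe sets lie, 146.3 to 191.2, and a probe set entered the tests if it reached this on 3 or more arrays. This left 9745 probe sets and 6 of the 10 members, for 5 of the 8 genes. Array medians ran from 173.4 to 226.4. For Gapdh, the signal of the 3′ control probe set over that of the 5′ one was 0.998 to 1.38 and in 6 of 6 pairs the arginine-deficient array had the higher value, while for beta-actin this held in 2 of 6 pairs, and the part of RNA quality in the results below was not tested. Tumor arrays were all scanned on 1 day and normal arrays on 3 other days, so the day of the scan and the cell type cannot be told apart. The cell types also shared no chip lot, so the same holds for the lot. Of the hepatocyte markers, 1 of 8 on the array passed the threshold, and this was Pck1, at 80.2 to 224.2. The signal of albumin, the main secreted protein of hepatocytes, was 63.4 to 178.7 and that of Apoa1 was 4.5 to 13.9. Of the liver epithelial or biliary markers 2 of 7 passed, the keratins Krt8, at 2158.8 to 11222.9, and Krt7, with a mean of 5850 in normal and 291 in tumor cells with arginine, while Krt18, Krt19, Epcam, Cdh1 and Afp were below the threshold on every array. Of the macrophage markers 1 of 5 passed, Cd14, while the leukocyte marker Ptprc was at 19.6 to 44.1.

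**Figure D1:**
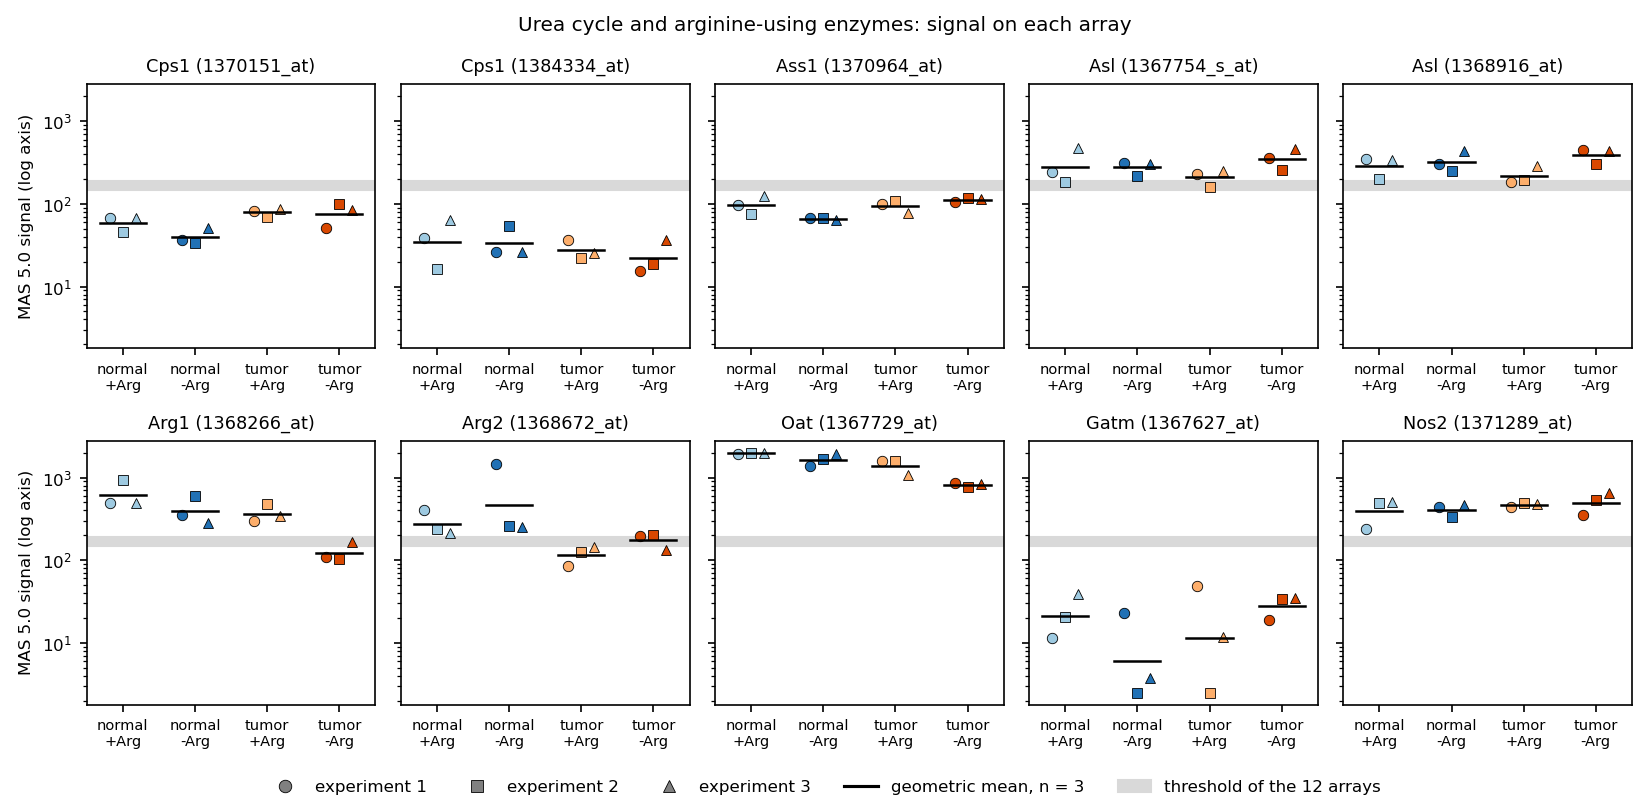
Signal of each of the 10 member probe sets (vertical log axis, MAS 5.0 signal) on each of the 12 arrays, by cell type and medium (+Arg, arginine-sufficient; -Arg, arginine-deficient). Marker shapes give the experiment, lines the geometric mean of 3 cultures and the grey band the range of the arrays' thresholds, 146.3 to 191.2; both Cps1 probe sets, Ass1 and Gatm lie below the band everywhere, and Arg1 lies in or below it in arginine-deficient tumor cells.

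The first enzyme of the cycle, Cps1, which makes carbamoyl phosphate in liver mitochondria, was not above the threshold in either cell type. Probe set 1370151_at ranged from 33.7 to 98.6 and probe set 1384334_at from 15.6 to 63.2. The highest Cps1 signal on any array was therefore below the lowest array threshold, 146.3. Otc, which makes citrulline from carbamoyl phosphate, also stayed under the threshold, and Nags, which supplies the activator of Cps1, had no probe set with a single symbol here. Log2 differences at such signals were wide, between -1.25 and 1.74 for 1384334_at over the 3 experiments in normal cells, and when all probe sets were tested with limma without the threshold, the smallest adjusted p of Cps1 in the 6 comparisons was 0.0858 (1370151_at, tumor minus normal without arginine).

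Ass1 makes argininosuccinate, and with Asl it is the route by which cells regain arginine from citrulline. Its probe set, 1370964_at, was also below the threshold on all arrays, with signals of 64.0 to 123.0. In normal cells the signals were 97.0, 75.6 and 123.0 with arginine and 67.8, 67.9 and 64.0 without it, in experiments 1 to 3. In tumor cells they were 100.9, 109.5 and 76.6 with arginine and 106.2, 117.9 and 113.7 without it. The arginine-deficient culture was thus the lower of its pair in 3 of 3 experiments in normal cells and the higher in 3 of 3 in tumor cells. Tested without the threshold, Ass1 differed by -0.54 ± 0.29 (SE, log2) in normal cells, with an adjusted p of 0.684, and by 0.25 ± 0.29 in tumor cells, with an adjusted p of 0.843.

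Asl, which releases arginine and fumarate from argininosuccinate, was above the threshold on all 12 arrays with probe set 1368916_at. Its signals in tumor cells were 185.1, 195.6 and 283.7 with arginine and 444.6, 303.3 and 434.1 without it, so that every arginine-deficient culture was above every arginine-sufficient one. In normal cells they were 348.4, 197.6 and 338.2 with arginine and 305.0, 246.9 and 437.4 without it, and the groups overlapped. The log2 difference was 0.84 ± 0.29 in tumor cells, with an adjusted p of 0.166, and 0.17 ± 0.29 in normal cells, with an adjusted p of 0.906. With the experiment as a block the difference in tumor cells passed, with an adjusted p of 0.0199. The 2 responses differed by 0.67 ± 0.41 between tumor and normal cells, with an adjusted p of 0.955.

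The other Asl probe set, 1367754_s_at, gave 231.4, 162.3 and 251.1 with arginine and 360.2, 257.0 and 460.5 without it in tumor cells. These groups did not overlap either, and the log2 difference was 0.73 ± 0.33, with an adjusted p of 0.314, and of 0.0484 with the experiment as a block. In normal cells its signals were 242.1, 185.0 and 468.2 with arginine and 313.1, 219.2 and 307.8 without it, a log2 difference of 0.00 ± 0.33. The sequence record behind this probe set is listed in RefSeq under Hnrnpab, an RNA-binding protein gene, so its assignment to Asl is uncertain. The study names the probe set for heterogeneous nuclear ribonucleoprotein A/B and lists it as decreased in normal cells. Over the 12 arrays the log2 signal of 1367754_s_at correlated at 0.79 with the other Asl probe set and at -0.44 with the Hnrnpab probe set 1370309_a_at. The signals of the latter were 4092.2 to 6122.9.

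RefSeq promoter entries of the build GRCr8 were found for 5 of the 8 genes (Asl, Ass1, Cps1, Gatm and Oat), but not for Arg1, Arg2 or Nos2. The 250 bases before the start are shown for Asl and Oat, which in tumor cells differed in opposite directions and passed with the experiment as a block. The Asl sequence is chr12:32295658-32295907 on the plus strand and that of Oat is chr1:196797755-196798004 on the minus strand, both written 5′ to 3′ toward the start, with capitals at matches to CCAAT on either strand.
Asl: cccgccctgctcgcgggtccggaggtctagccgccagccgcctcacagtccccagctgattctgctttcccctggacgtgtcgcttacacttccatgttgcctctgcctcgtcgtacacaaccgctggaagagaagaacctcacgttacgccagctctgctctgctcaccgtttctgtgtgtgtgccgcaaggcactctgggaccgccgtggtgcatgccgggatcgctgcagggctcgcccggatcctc
Oat: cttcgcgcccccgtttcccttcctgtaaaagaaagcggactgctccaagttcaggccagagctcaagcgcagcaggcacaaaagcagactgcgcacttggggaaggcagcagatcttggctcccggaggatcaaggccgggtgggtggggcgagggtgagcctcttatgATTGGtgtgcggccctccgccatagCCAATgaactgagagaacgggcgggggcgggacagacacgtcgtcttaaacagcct
CCAAT matched 2 times in Oat, 2 times in Gatm and in no other of the 5, and 34.0% of 33469 RefSeq promoters hold it in a window of the same length. TATAAA matched once in Ass1 and is in 12.9% of promoters. Neither the C/EBP-ATF composite element, searched as TGATGNAA and present in 3.4% of promoters, nor the E-box CACGTG, present in 5.59%, was found in these 5 windows. All motifs were searched on both strands, and none of them contains another.

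Arg1, the cytosolic arginase that closes the cycle in hepatocytes, was the member that passed the test for arginine. In tumor cells its signals were 301.8, 477.7 and 338.0 with arginine and 108.3, 104.0 and 165.5 without it, and the groups did not overlap. It fell in each of the 3 experiments, with log2 ratios of -1.48, -2.20 and -1.03, and 8 of the 9 ratios between arginine-deficient and arginine-sufficient cultures showed a decrease of at least 2-fold. The fitted log2 difference was -1.57 ± 0.33 (95% interval -2.27 to -0.87), with an adjusted p of 0.0293, and of 0.00131 with the experiment as a block. The second experiment, which gave the largest ratio, is the tumor experiment whose run notes record no trypsin for both cultures, while those of the other tumor experiments record trypsin.

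The arginine-deficient tumor cultures had Arg1 signals around the threshold, and only 1 of these 3 arrays was above it, so the size of the decrease rests on low signals. Raising every low signal to its array's threshold gave -1.15, with an adjusted p of 0.058. The decrease did not pass without a threshold for testing (0.0523), after quantile normalization (0.0547), after median centring (0.0512) or in a plain linear model (0.107). Nor did it pass when tumor array 7, 9 or 11 (with arginine) or 8 or 10 (without it) was left out, with adjusted p values of 0.0638, 0.158, 0.0544, 0.0731 and 0.13, while the log2 difference over all such omissions stayed between -1.78 and -1.38. It was -1.28 within the chip lot that held 2 arrays of each medium and -2.14 within the lot that held 1 of each. In the latter lot the arrays came from different experiments, with trypsin recorded for the arginine-deficient culture and no trypsin for the arginine-sufficient one. In the former lot no trypsin was recorded for 1 arginine-deficient culture and trypsin for the rest. Arginine, experiment and trypsin therefore cannot be told apart in these values.

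In normal cells Arg1 was at 495.7, 923.1 and 487.0 with arginine and at 350.2, 603.2 and 283.4 without it. The arginine-deficient culture was the lower in each pair, with log2 ratios of -0.50, -0.61 and -0.78, but the groups overlapped because both cultures of the second experiment were high. The log2 difference was -0.63 ± 0.33, with an adjusted p of 0.586, and of 0.135 with the experiment as a block. The 2 arrays of the second experiment were of different scan days and chip lots. Within the scan days that held both media the log2 difference was -0.78 and -0.11, and within the chip lot that held both it was -0.33. Experiment and batch cannot be told apart in these values. The log2 response in tumor cells minus that in normal cells was -0.94 ± 0.46, which did not pass, with an adjusted p of 0.896 and an interval of -1.93 to 0.06. Averaged over both cell types the difference was -1.10 ± 0.23, with an adjusted p of 0.0237.

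**Figure D2:**
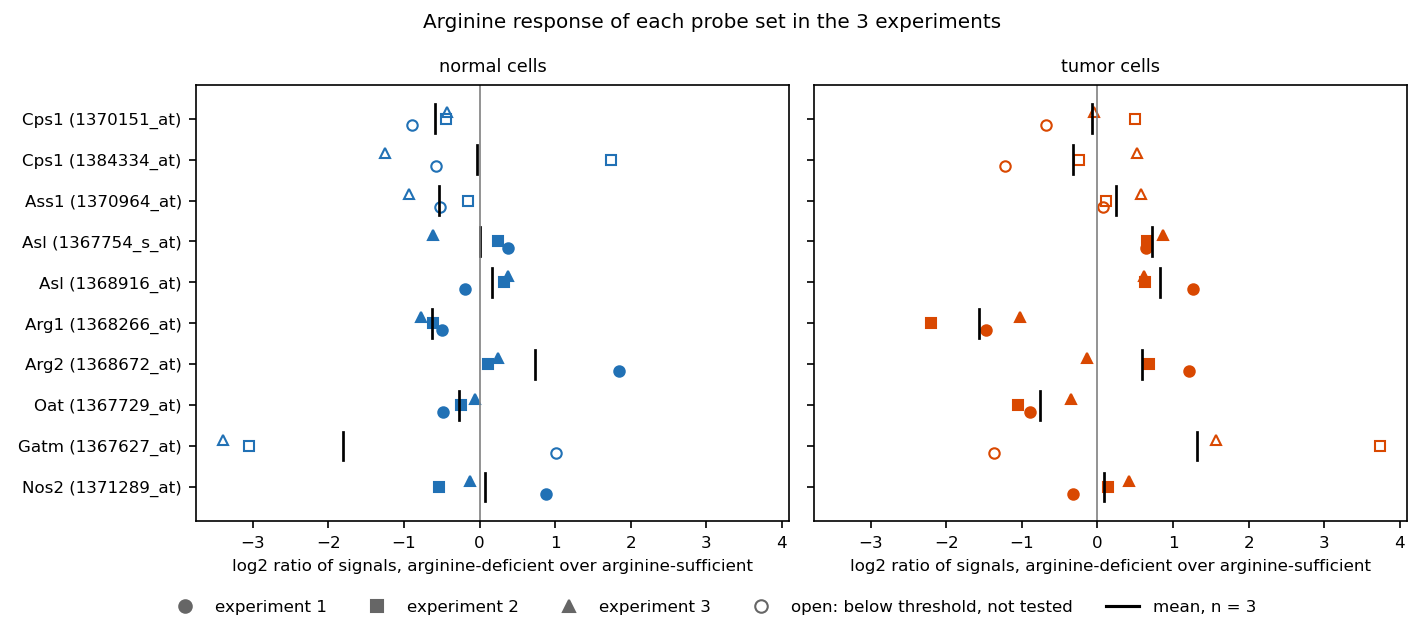
Log2 ratio of the arginine-deficient over the arginine-sufficient signal (horizontal axis) for each member probe set in each of the 3 experiments, in normal (left) and tumor cells (right). Open markers are probe sets below the threshold and vertical bars are means of 3 experiments; Arg1 and Oat lie left of 0 in all 6 experiments, both Asl probe sets right of 0 in the 3 tumor experiments, and Arg2 at 1.85 in 1 normal experiment.

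Arg2, the mitochondrial arginase that many cells outside the liver express, was dominated by 1 culture. In normal cells its signals were 408.3, 238.7 and 215.2 with arginine and 1470.8, 257.7 and 254.6 without it, so the first experiment held the highest culture of each medium. In tumor cells they were 85.8, 125.7 and 145.0 with arginine and 198.1, 201.5 and 131.5 without it. The log2 difference in normal cells was 0.73 ± 0.54, with an adjusted p of 0.723, and it was -0.11 without the culture at 1470.8. In tumor cells it was 0.58 ± 0.54, with an adjusted p of 0.664, and 0.11 with low signals raised to the threshold. Arg2 was above the threshold on 8 of 12 arrays, the 6 normal arrays and 2 arginine-deficient tumor arrays, so that it entered the tests through the normal cells.

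Oat, the mitochondrial enzyme that converts ornithine toward glutamate and proline, was well above the threshold on every array. In tumor cells its signals were 1596.5, 1577.0 and 1067.7 with arginine and 862.0, 762.0 and 838.0 without it. In normal cells they were 1919.0, 1971.2 and 1994.4 with arginine and 1361.9, 1656.1 and 1906.7 without it. Arginine-deficient cultures were below arginine-sufficient ones without overlap in both cell types, but in normal cells by a margin of 1906.7 against 1919.0. The log2 difference in tumor cells was -0.76 ± 0.19 (95% interval -1.16 to -0.36), which narrowly missed the threshold with an adjusted p of 0.0531 and passed with the experiment as a block, at 0.00965, with the filter at the highest 40% of signals, at 0.0445, and with low signals raised, at 0.0417. In normal cells it was -0.27 ± 0.19, with adjusted p values of 0.704 and 0.368, and the difference between the responses, -0.49 ± 0.26, had an adjusted p of 0.92. Averaged over both cell types it was -0.52 ± 0.13, with an adjusted p of 0.0515, and of 0.00985 with the block.

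Gatm, which starts creatine synthesis from arginine and glycine, was at 2.5 to 48.9 and below the threshold on every array. Its log2 ratios ran from -3.39 to 3.74 between experiments, and at signals this low they carry no order. Nos2, the inducible nitric oxide synthase, was above the threshold on all 12 arrays with probe set 1371289_at. Its signals in normal cells were 238.2, 489.5 and 503.8 with arginine and 438.0, 337.0 and 464.6 without it. In tumor cells they were 439.0, 485.0 and 480.4 with arginine and 352.6, 536.2 and 642.5 without it. The groups overlapped in every comparison, with log2 differences for arginine of 0.07 ± 0.29 in normal cells (interval -0.55 to 0.70) and 0.08 ± 0.29 in tumor cells (interval -0.54 to 0.70). The probe set shared with the Nos2 pseudogene, 1387667_at, was at 2.3 to 76.5, below the threshold on every array. These probe sets thus differ on whether Nos2 was expressed, and the cause was not tested.

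**Figure D3:**
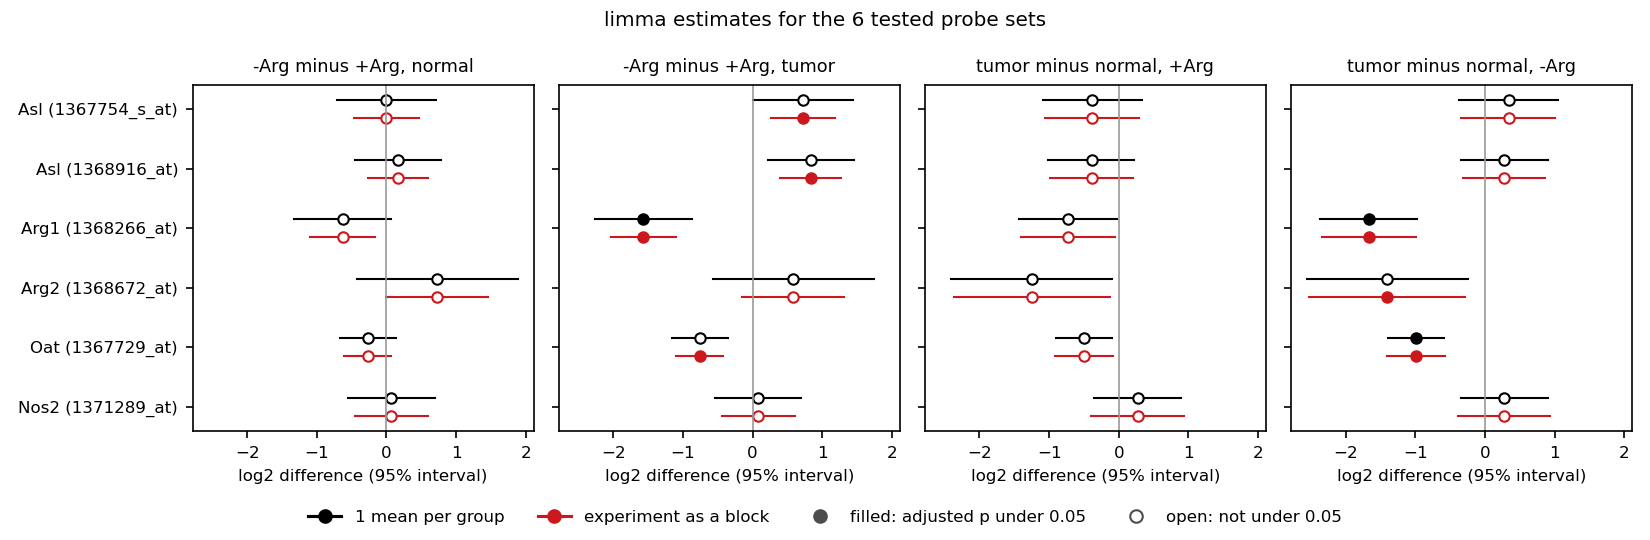
Log2 differences with 95% intervals (horizontal axis) from limma for the 6 tested member probe sets in 4 comparisons, with 1 mean per group (black) and with the experiment as a block (red). Filled points have an adjusted p under 0.05; Arg1 in tumor cells (-1.57) and Arg1 and Oat between cell types without arginine (-1.67 and -0.99) are filled in both fits.

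Counted over the 6 tested member probe sets, the arginine comparison called 0 in normal cells, where 0.164% of all tested probe sets passed, and 1 (Arg1, lower) in tumor cells, where 1.91% passed and 0.944% did so downward. Of the 6, 0 had an unadjusted p under 0.05 in normal cells and 4 had one in tumor cells, beside 920 and 1491 of all 9745. The mean effect over both cell types called 1 member (Arg1) against 2.96% of all, and the difference between the responses called 0 members against 0.0% of all, with an unadjusted p under 0.05 in limma for 0 of the 6 members and for 550 of all. The median log2 difference of the 6 was 0.04 in normal and 0.33 in tumor cells, beside medians of -0.04 and -0.05 over all tested probe sets. These medians count both Asl probe sets. Without the Asl probe set of uncertain assignment, the middle value was that of Nos2, 0.07 in normal and 0.08 in tumor cells. The size of the median in tumor cells thus depended on that probe set. With the experiment as a block the tumor comparison called 4 members (Arg1 and Oat lower, both Asl probe sets higher) against 11.0% of all, and the mean effect called 3 (Arg1, Oat and Asl 1368916_at) against 14.7%. The 4 members called in tumor cells stand for 3 genes.

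By overlap alone, 2 of the 6 lay wholly lower in arginine-deficient tumor cells (Arg1 and Oat), as did 13.6% of all tested probe sets, and 2 lay wholly higher (both Asl probe sets), as did 9.69%. The 2 Asl probe sets stand for 1 gene, if the uncertain assignment of 1 of them holds. In normal cells 1 lay wholly lower (Oat), as did 7.76% of all, and 0 wholly higher, as did 6.18%. A 2-fold rule modeled on part of the study's criteria, a ratio of at least 2 in at least 6 of the 9 comparisons of cultures, was met by Arg1 in tumor cells, where 1.4% of tested probe sets met it downward, and by none of the other 5. The study's further filters, on present signals, change calls in each replicate and mean fold change, were not applied.

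Between the cell types, Arg1 and the ornithine-using enzyme Oat were lower in tumor cells without arginine. With arginine present, tumor cultures lay wholly below normal ones for Arg1, Arg2 and Oat, 3 of 6 probe sets where 24.7% of all did so, but 0 of 6 passed the limma test, against 34.6% of all tested probe sets, and 3 had an unadjusted p under 0.05. The median log2 difference of the 6 was -0.44 with and -0.36 without arginine, beside 0.0 and 0.01 over all. These medians count both Asl probe sets. Without 1367754_s_at the middle value was that of Oat, -0.50 with and -0.99 without arginine. When Arg2 was left out instead, it was that of Asl 1368916_at with arginine, -0.39, and that of Nos2 without arginine, 0.27. The sign of the median without arginine thus depended on Arg2. The log2 differences (tumor minus normal) were -0.73 ± 0.33 for Arg1, -1.25 ± 0.54 for Arg2 and -0.50 ± 0.19 for Oat, with adjusted p values of 0.101, 0.0894 and 0.0528. Arg2 entered the tests through the normal cells, so its place among the 3 is no support for a lower level in tumor cells. For Arg2 none of the 3 arginine-sufficient tumor arrays was above the threshold, so its difference is uncertain in size: it was -0.73, with an adjusted p of 0.291, with low signals raised. It passed, with an adjusted p of 0.00709, when the culture with the signal of 1470.8 was left out of the fit. That culture is arginine-deficient and in neither of the groups compared here, so its omission changed the estimate of spread. For Asl and Nos2 the log2 differences were -0.39 ± 0.29 (1368916_at), -0.38 ± 0.33 (1367754_s_at) and 0.27 ± 0.29, and these groups overlapped.

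Without arginine, Arg1 was lower in tumor cells, with a log2 difference of -1.67 ± 0.33 (adjusted p = 0.00125), and so was Oat, with -0.99 ± 0.19 (adjusted p = 0.000927). These were 2 of the 6 members, against 40.7% of all tested probe sets, or 21.2% in the downward direction. Both passed under each of the 11 alternative settings and with each array left out in turn, with log2 differences of -1.90 to -1.25 for Arg1 and -1.12 to -0.87 for Oat. The settings that block on scan day or chip lot cannot separate these from the cell type, because the cell types share no day and no lot. With the experiment as a block 3 members passed, against 40.4% of all. The 3 tumor cultures were wholly below the 3 normal ones for Arg1, Oat and Arg2, as they were for 24.1% of all. Arg2 is counted here and with the block although it entered the tests through the normal cells. For Arg2 the log2 difference was -1.40 ± 0.54, with an adjusted p of 0.0519, of 0.0455 with low signals raised and of 0.0445 when blocked on the experiment, and it shrank to -0.56 without the culture at 1470.8. Asl and Nos2 differed by 0.28 ± 0.29 (1368916_at), 0.34 ± 0.33 (1367754_s_at) and 0.27 ± 0.29, and did not pass. The cell types also differed in mesenchymal markers, all 5 of which passed the filter, though Col1a2 was above the threshold on 6 and Des on 7 of 12 arrays. Means without arginine in normal and tumor cells were 16000 and 13300 for Vim, 18800 and 253 for Col1a1 and 20800 and 82.0 for Col1a2. They were 1450 and 389 for Acta2 and 230 and 138 for Des. The part of these differences in the levels of the enzymes was not tested.

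In the order of mean levels, Arg1 ran from arginine-sufficient normal through arginine-deficient normal and arginine-sufficient tumor to arginine-deficient tumor cells, and only the last step had no overlap (301.8 against 165.5). Oat followed the same order, with overlap only between arginine-deficient normal and arginine-sufficient tumor cells. Arg2 ran from normal to tumor cells, with no overlap between the cell types (215.2 against 201.5) and overlap between the media in both. For Asl all neighbours in the order overlapped, with arginine-deficient tumor cells at the top and arginine-sufficient tumor cells at the bottom for both probe sets.

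**Figure D4:**
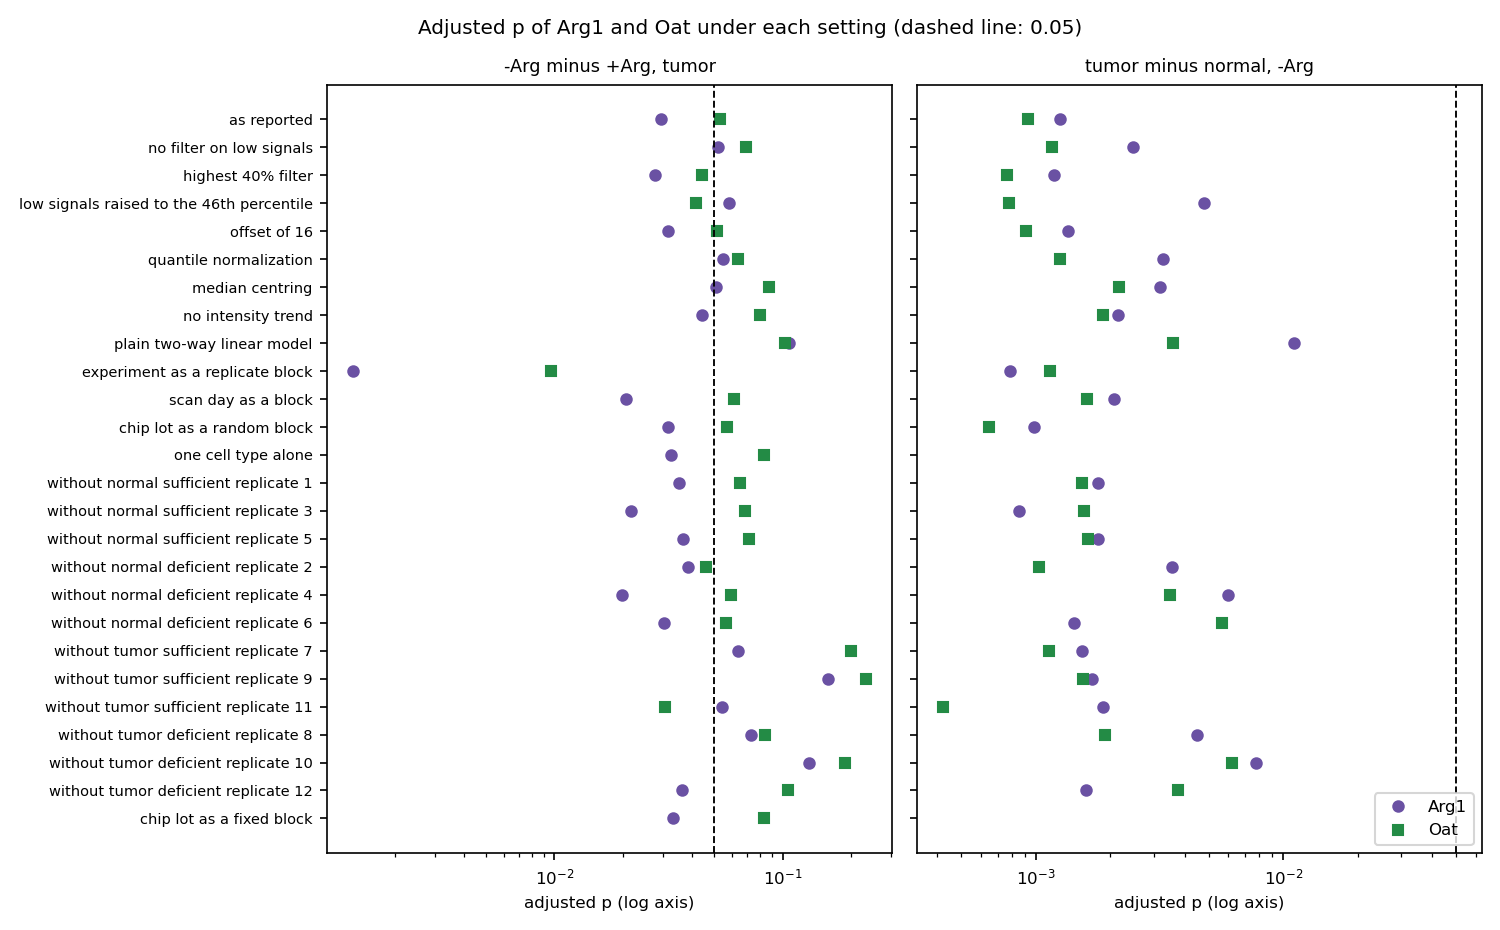
Adjusted p (horizontal log axis) of Arg1 (circles) and Oat (squares) under each setting, for the arginine comparison in tumor cells (left) and for tumor minus normal cells without arginine (right); the dashed line is at 0.05. On the left Arg1 spans 0.00131 to 0.158 and crosses the line, and on the right both genes stay left of the line in all settings (fits of 1 cell type alone and with chip lot as a fixed block give no value there).

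The genes around the cycle were taken from 9 lists with 58 symbols, older names included, of which 40 had a probe set and 28 were above the threshold. The lists were chosen with earlier results of these data known, so the counts describe these genes and do not test the lists. Slc7a1 and Prmt3 are among the genes that the study itself lists as increased in tumor cells. In tumor cells 4 of the 28 rose without arginine (Aldh18a1, Odc1, Slc7a1 and Prmt3) and 1 fell (Slc25a12), and in normal cells 1 rose (Slc7a1) and 0 fell, where 1.91% and 0.164% of all tested probe sets passed in either direction. Their median log2 difference was 0.02 in both, beside -0.05 and -0.04 for all tested probe sets. Blocking on the experiment gave 6 that rose and 3 that fell in tumor cells, and 1 of each in normal cells, against 11.0% and 2.41% of all tested probe sets. The calls added by the block, named after their values were seen, were rises of Got1 (adjusted p = 0.0239) and Rars1 (0.0119) and declines of Gamt (0.0157) and Aldh4a1 (0.00307) in tumor cells, and a decline of Aldh4a1 in normal cells (0.018).

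Among mitochondrial carriers, 1 of 4 changed: Slc25a12, an aspartate and glutamate exchanger, fell by 0.77 ± 0.17 in tumor cells (adjusted p = 0.0382). On the route from ornithine to proline, 2 genes were tested. Aldh18a1, which makes the precursor of both ornithine and proline from glutamate, rose in tumor cells by 0.84 ± 0.18 (adjusted p = 0.0305), while Aldh4a1, which degrades proline to glutamate, fell by 0.89 ± 0.16 in the mean over both cell types (adjusted p = 0.012). Oat and these genes share an intermediate, glutamate semialdehyde and its cyclic form.

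Odc1, which turns ornithine into putrescine, rose in tumor cells by 1.11 ± 0.22 (adjusted p = 0.0247), from a mean signal of 4200 to 8990. Slc7a1, the main cationic amino acid carrier, rose in both cell types, with log2 differences of 1.34 ± 0.23 (normal, adjusted p = 0.0439) and 1.22 ± 0.23 (tumor, adjusted p = 0.0195). Of the 6 tested genes that use arginine in proteins, 1 changed without the block, Prmt3, a methyltransferase that acts on a ribosomal protein, with a rise of 1.27 ± 0.29 in tumor cells (adjusted p = 0.0386). Of the 4 genes of nitrogen supply, 5 nitric oxide partners, 3 creatine genes and 2 genes from fumarate to aspartate, 0 passed for arginine in either cell type without the block, and with it Got1 of nitrogen supply and Gamt of creatine synthesis passed in tumor cells.

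**Figure D5:**
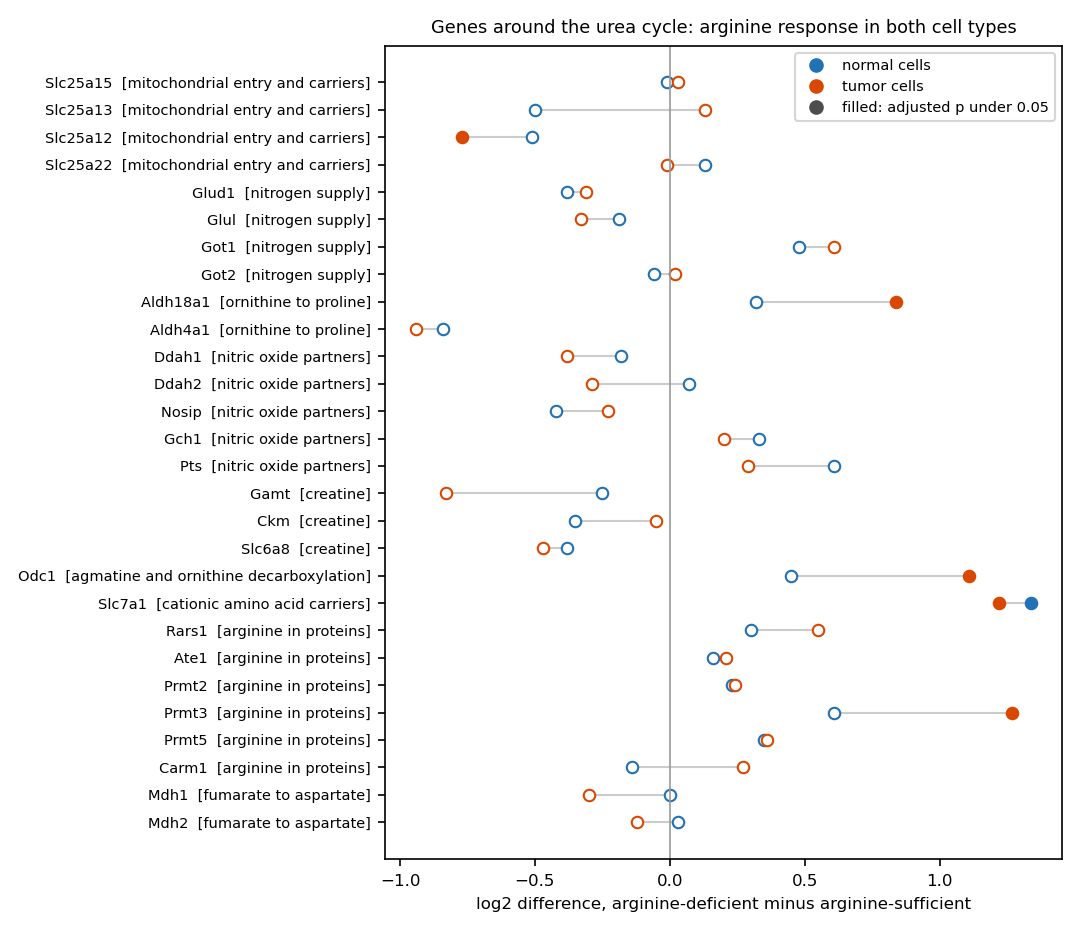
Log2 difference between arginine-deficient and arginine-sufficient cells (horizontal axis) for the 28 tested genes of 9 lists around the urea cycle (list in brackets), in normal (blue) and tumor cells (orange). Filled points have an adjusted p under 0.05; Slc7a1 is filled in both cell types (1.34 and 1.22), and Odc1, Prmt3, Aldh18a1 and Slc25a12 in tumor cells.

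Between cell types, 8 of the 28 genes were higher and 2 lower in tumor cells with arginine, and 11 were higher and 3 lower without it. Of all tested probe sets, 34.6% and 40.7% differed in either direction, and 21.2% were lower in tumor cells without arginine. The median log2 difference of the 28 was 0.3 with and 0.4 without arginine, beside 0.0 and 0.01 over all. These values describe the listed genes and do not test the lists. Higher in tumor cells in both media were the aspartate carrier Slc25a13, by 0.83 ± 0.23 and 1.45 ± 0.23, the glutamine synthetase gene Glul, by 0.94 ± 0.20 and 0.79 ± 0.20, and the transaminase genes Got1, by 0.77 ± 0.20 and 0.90 ± 0.20, and Got2, by 0.89 ± 0.25 and 0.96 ± 0.25. So were Slc7a1, by 1.14 ± 0.23 and 1.02 ± 0.23, and the arginine methyltransferase genes Prmt5, by 1.06 ± 0.21 and 1.08 ± 0.21, and Carm1, by 0.76 ± 0.26 and 1.17 ± 0.26. In the arginine-deficient medium, Aldh18a1, Odc1 and Prmt3 were higher too, by 0.60 ± 0.18, 0.86 ± 0.22 and 1.13 ± 0.29. The 2 lower ones in both media were Ddah1 and Ddah2, which degrade methylarginines that inhibit nitric oxide synthases. Ddah1 had a mean signal of 3090 in normal and 667 in tumor cells with arginine, a log2 difference of -2.21 ± 0.29. Ddah2 had a mean of 275 in normal cells and of 8.33 in tumor cells with arginine, far under the threshold in the latter. It entered the tests through the normal cells, so its place among the lower genes is no support for a lower level in tumor cells. Mdh1, a cytosolic malate dehydrogenase gene, was lower without arginine, with a log2 difference of -0.61 ± 0.15, and its mitochondrial counterpart Mdh2 was higher in both media.

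The genes whose log2 signal followed the members most closely over the 12 arrays are given as a description, since arrays of 1 cell type and 1 experiment share much of their variation. For Arg1 these were Usp2, Lpcat4 and Nherf2, with Pearson correlations of 0.935, 0.934 and 0.927. For Oat they were Fxr1 (0.984), Epb41l2 (0.966) and Mtmr4 (0.965), and for Arg2 Tmed9 (0.934), Ext2 (0.926) and Slc16a6 (0.919). Both Asl probe sets shared Atp6v0a1 among their closest 3 (0.858 and 0.876), and the closest gene to Asl 1368916_at was Tgif1 (0.88). For Nos2 the closest were Slc50a1 (0.848), Polr3b (0.846) and Cdk10 (0.828).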

How the data were processed

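RNA of 12 cultures was hybridized to 12 RAE230A arrays. The authors deposited intensities, 1 linear signal for each probe set from Microarray Suite 5.0, after scaling every array to a common mean. Arrays give no counts, so their number limits the precision. Before log2 was taken, signals under 1 were raised to 1. Low signals and 57 control probe sets were left out of testing. Symbols are those of the array annotation, in which 12783 probe sets have 1 symbol, 311 several and 2778 non-control probe sets none.

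limma 3.58.1 in R 4.3.3 was fitted on all 12 arrays with 1 mean per group and an intensity trend, with Benjamini-Hochberg adjustment over 9745 probe sets and a threshold of 0.05. The study describes pairwise experiments, and the labels number the cultures accordingly. Deviations from the group means correlated at 0.43, 0.42 and 0.38 within pairs of normal cultures and at 0.56, 0.04 and 0.42 within tumor pairs. A fit that blocks on the experiment is therefore given beside the results where it changed a call for a member, or for a listed gene within a cell type. Run notes gave the arginine status of 10 arrays, and it matched the label in 10 of 10. Chip lot and scan day were read from the same notes.

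The named genes are all member probe sets, up to 4 passing genes of each list with the largest change, and the 3 most similar genes per tested member. A listed gene was represented by its tested probe set with the highest mean signal. Members and lists were chosen with earlier results of these data known. Alternatives covered the filter, low signals, an offset of 16, scaling, the model, blocks and the omission of each array. The fit was tested on simulated data. Python 3.11.15, numpy 2.4.6, pandas 2.3.3 and matplotlib 3.10.9 were used. Promoter sequences are from RefSeq (GRCr8).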

Additional observations from a re-analysis of the deposited data

Results flagged for a closer look

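The mean log2 ratio of Ass1 (1370964_at) over the 3 experiments was 0.79 higher in tumor than in normal cells, because every arginine-deficient normal culture was below its arginine-sufficient partner (log2 ratios of -0.52, -0.15 and -0.94) and every arginine-deficient tumor culture was above it (0.07, 0.11 and 0.57). All 12 signals were below the threshold of expression, so this difference was not tested among the expressed probe sets. In the fit over all probe sets it was 0.79 ± 0.42 (SE, log2), with an adjusted p of 0.967.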

How the results depend on the processing

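For Arg1 and Oat the direction of every comparison was kept under all settings. The number of member probe sets called for arginine in tumor cells, 1 as reported, was 0 without a filter on low signals, with quantile normalization, with median centring and in the plain linear model, 2 with the filter at the highest 40%, 4 with the experiment as a block, and 0 to 2 with 1 array left out. With low signals raised, Oat passed (0.0417) in place of Arg1. For the mean effect, also 1, it was 2 with the highest 40% and with low signals raised, 0 in the plain linear model and with chip lot as a fixed block (added after the data were seen), 3 with the experiment as a block, and 0 to 2 with 1 array left out. For tumor minus normal with arginine, 0 as reported, it was 1 with the highest 40%, with quantile normalization and with chip lot as a random block, and 0 to 2 with 1 array left out. The counts without arginine (2), in normal cells (0) and for the difference of responses (0) stayed within 1.5 times under all settings. The filter at the highest 40% left out Arg2. Median centring moved all tumor minus normal differences by 0.12 with and 0.11 without arginine. The call counts over all tested probe sets also varied with the setting, leaving aside the omission of arrays. They ranged from 0 to 235 in normal cells (16 as reported) and from 29 to 1069 in tumor cells (186). For the mean effect the range was 137 to 1430 (288) and for the difference 0 to 5 (0). The highest count was always with the experiment as a block. With 1 array left out the ranges were, in the same order, 3 to 49, 25 to 200, 114 to 505 and 0 to 1.

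Reversals were among differences that never passed. In normal cells Asl 1368916_at (0.17 as reported) was -0.04 with scan day as a block, -0.10 with chip lot as a fixed block, and -0.10 to 0.36 with 1 array left out. Arg2 there was -0.11 to 1.16, and Nos2 -0.28 to 0.26, with 1 array left out. Nos2 was also -0.11 to 0.33 in tumor cells, -0.10 to 0.20 in the mean and -0.09 to 0.45 between cell types with arginine. For the difference of responses, Arg2 was 0.14 with scan day as a block and -0.58 to 0.69 with 1 array left out, and Nos2 was -0.26 with scan day as a block, -0.16 with chip lot as a fixed block and -0.18 to 0.36 with 1 array left out. The cause of these changes was not tested.

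With 3 arrays per group, tested differences had standard errors of 0.13 to 0.76 for the members, and members below the threshold could not be ordered.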
